A study of Mus musculus with 12 samples.

Results

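NMDA-type glutamate receptors and the proteins that hold them at the postsynaptic side of excitatory synapses were followed here through 10 genes. These were the receptor subunits Grin1, Grin2a, Grin2b, Grin2c, Grin2d and Grin3a, and the scaffolds Dlg4, Dlgap1, Shank3 and Homer1. The genes were chosen with earlier results of these data known, and no measured value entered the rule that picked their probe sets. A probe set (a group of short probes read as one value) was taken when the platform annotation gave it a single one of these symbols. No probe set was listed under Grin1 alone, so this gene is not analysed here. The other 9 genes had 27 probe sets of the 45037 tested, or 9 of the 18193 genes named by a single symbol. The brightest probe set of a gene on average was taken as its lead, and 3 genes (Grin2a, Grin2c and Shank3) had no other.

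The 12 arrays came from male Swiss mice, an outbred stock, that were 22 weeks old at the end. From 6 weeks of age they had water, 5% ethanol and 10% ethanol to choose from, with 10 weeks of acquisition, 2 of withdrawal, 2 of reinstatement and 2 with 0.005 g/L quinine, a bitter taste, in both ethanol solutions. A further week of free choice is also described. The groups were inflexible drinkers, which went on preferring ethanol when it held quinine, and light drinkers, which drank more water than ethanol, each with 3 arrays of whole striatum and 3 of prefrontal cortex. Per the labels, blood ethanol averaged 113 ± 11.3 mg/dL in the inflexible class and 48 ± 13.3 mg/dL in the light class, and the kind of error is not stated. Mice of both classes had drunk ethanol, and no water-only group was analysed here. The classes were assigned by the animals' own intake, not by the experimenters. The labels give a single pool concentration for each group, so the 3 arrays may be hybridisations of one pool of RNA. All p-values below therefore cover the spread between arrays, which may be technical, and not the spread between mice.

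The NMDA receptor is a glutamate-gated channel that passes calcium when glutamate binds while the membrane is depolarised. It combines Grin1 subunits with Grin2 or Grin3 subunits, and Grin2a and Grin2b are the main Grin2 partners in the adult forebrain. Beneath it, Dlg4 (PSD-95) binds the Grin2 tails, Dlgap1 (GKAP) links Dlg4 to Shank proteins, and Shank3 meets Homer1, which also binds group I metabotropic glutamate receptors. Long Homer1 proteins join through a coiled coil, while the short Homer1a form lacks it and is made from an activity-induced transcript. Ethanol is known to inhibit NMDA receptors.

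Values are the deposited log2 signals (base 2 assumed, as under the processing), given as mean ± SD of n = 3 arrays, and differences carry their SE. A probe set was called when its adjusted p from limma, a linear model fitted to all probe sets, was under 0.05 after Benjamini-Hochberg adjustment over all of them. Array medians lay between 3.12 and 3.14, so a probe set near 3 read little or no signal and its differences are compressed. The leads of Grin2b, Dlg4, Dlgap1, Shank3 and Homer1 averaged above 4, and those of Grin2a, Grin2c, Grin2d and Grin3a did not. In all, 13 of the 27 probe sets averaged above 4.

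The arrays differed in a way that the groups do not explain. Spiked hybridisation controls averaged 8.36 to 9.30 on 5 arrays (replicates 1 and 3 of the inflexible striatum, replicate 1 of the light striatum and replicate 2 of both prefrontal groups) and 6.47 to 7.06 on the other 7. These are called high-control and low-control arrays below. For some results, but not for all that follow the split, the difference is also given with the split as a block or on each side. The tissue was read from markers. Marker genes of medium spiny neurons, the main neurons of striatum, averaged 6.23 to 6.33 on inflexible and 5.77 to 5.92 on light striatal arrays, against 4.94 to 4.98 on inflexible and 4.27 to 4.32 on light prefrontal arrays. Their level thus separated the regions as labelled, and it also differed between the classes in both regions.

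Of the 27 member probe sets, 1 was called between inflexible and light drinkers, in prefrontal cortex. The share there was 0.826% of all probe sets in either direction and 0.424% lower. It belonged to Homer1 but was not the lead, and 0 of 9 leads were called, against 1.04% of all leads. In prefrontal cortex the Homer1 probe set 1436387_at fell to 5.68 ± 0.11 in inflexible drinkers, against 6.93 ± 0.24 in light drinkers, which made it 2.38-fold lower. In striatum the same probe set stood at 5.88 ± 0.23 in inflexible drinkers, against 5.16 ± 0.20 in light drinkers, a difference that did not pass the test. The other 26 probe sets were not called in either region.

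Homer1 lies on mouse chromosome 13, and RefSeq lists 5 transcripts for it. Because one Homer1 form is activity-induced, the window around its first annotated start is shown, GRCm38.p6 chr13:93303507-93303806 on the + strand (RefSeq), running from 250 bases before the start to 50 after it. Capitals mark TGACG, the core of the cAMP response element through which activity-driven transcription is known to act.
Homer1 promoter window: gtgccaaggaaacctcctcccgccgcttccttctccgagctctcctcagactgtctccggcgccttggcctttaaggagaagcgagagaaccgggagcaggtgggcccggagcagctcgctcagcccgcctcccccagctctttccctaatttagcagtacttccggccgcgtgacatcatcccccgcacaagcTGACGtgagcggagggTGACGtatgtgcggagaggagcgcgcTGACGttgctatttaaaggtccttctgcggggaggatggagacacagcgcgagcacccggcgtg
The window holds 3 of these cores. At least 3 occur in 1.03% of the 32851 RefSeq windows of this length, and at least 1 in 20.8%, searched on both strands. The cut of 3 is the count of this window itself, so the 1.03% is a description and not a test. A second annotated Homer1 start, with the window chr13:93307784-93308083, held none of the 6 motifs searched. A match is a run of letters and not a shown binding site.

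On the 3 prefrontal arrays of inflexible drinkers, Homer1 1436387_at read 5.68, 5.79 and 5.57, against 6.82, 7.20 and 6.77 on those of light drinkers. The groups did not overlap, and every inflexible array lay below every light one by more than the range of either group. The difference was -1.25 ± 0.15 (95% confidence interval -1.59 to -0.91, limma adjusted p = 0.0048). On striatal arrays the values were 5.69, 5.81 and 6.14 in inflexible drinkers, against 5.39, 5.03 and 5.06 in light drinkers. Here the inflexible arrays were all above the light ones. The striatal difference of 0.72 ± 0.15 (0.39 to 1.06) had an adjusted p of 0.406 in limma. The test of the difference between the regions was passed, with the class difference in striatum larger than that in prefrontal cortex by 1.97 ± 0.21 (adjusted p = 0.0067 in limma).

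**Figure D1:**
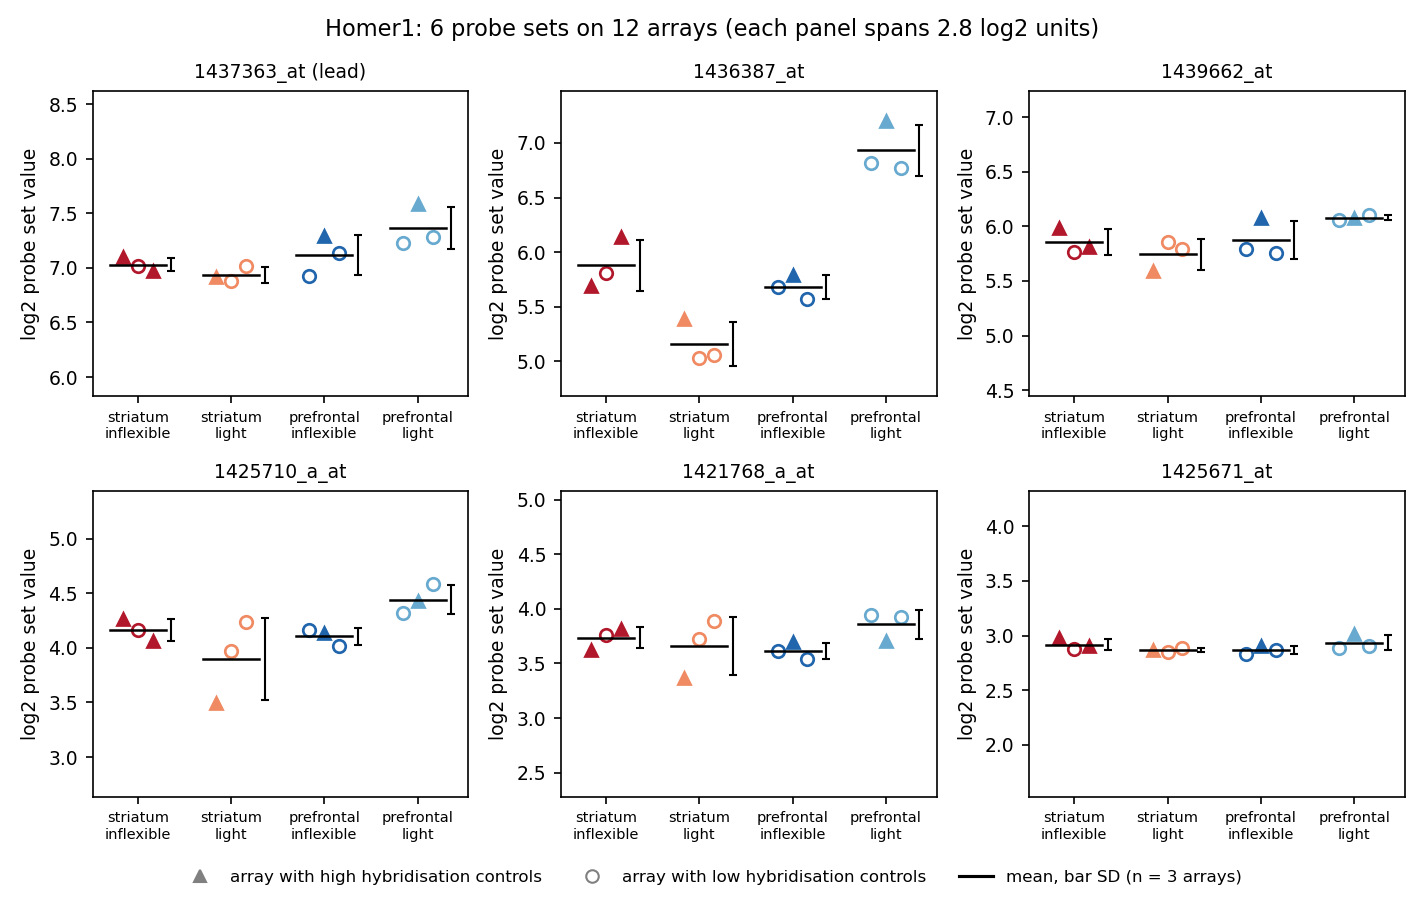
Homer1 log2 signal (y axis) by group (x axis) for each of its 6 probe sets, with 1 point per array, triangles for high-control arrays and bars for the mean ± SD of 3 arrays. In 1436387_at the light prefrontal arrays sit highest, at 6.77 to 7.20, and the light striatal arrays lowest, at 5.03 to 5.39.

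With the array split as a block, the prefrontal difference of Homer1 1436387_at was -1.25 ± 0.11 (limma adjusted p = 0.00069). Low-control arrays alone, 2 a class, gave -1.17 ± 0.04 (adjusted p = 0.0040). The high-control side held 1 array a class and gave -1.42, a value with no check of its own, since the only residual degree of freedom (SE 0.29, adjusted p = 0.546) came from the 2 inflexible striatal arrays. The difference was negative on both sides. In prefrontal cortex, arrays with the same replicate number deviated together, as did those with different numbers on the same side of the split. With the number as a block over all 12 arrays, the limma adjusted p was 0.0277. Leaving out 1 array at a time kept the difference between -1.33 and -1.11 and the limma adjusted p between 0.0052 and 0.0299.

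Markers of other cells moved with the prefrontal classes. For scale, limma called 1.04% of all lead probe sets between these classes. Of 16 measured medium spiny neuron markers, 7 rose in inflexible drinkers and 0 fell, by the limma test, with the list levels given above. Oligodendrocyte and myelin markers rose in 6 of 14, at a list mean of 5.27 to 5.36 on inflexible and 4.43 to 4.58 on light arrays. Hippocampal neuron markers rose in 5 of 9, at a list mean of 4.29 to 4.42 on inflexible and 3.84 to 3.90 on light arrays. Of 10 choroid plexus markers 1 rose, Ttr, by 6.25 ± 0.23. That list averaged 4.11 to 4.22 on inflexible and 3.24 to 3.30 on light arrays, but its median difference was 0.29 and 8 of the 10 averaged under 4. Cortical excitatory neuron markers averaged 5.63 to 6.01 on inflexible and 5.87 to 6.15 on light arrays. Their median difference was -0.29, against 0.00 over all genes. Only 1 of the 14 was called, Neurod6, which rose, against the direction of that median. Markers of astrocytes and cerebellar granule cells had 0 calls of 10 and of 8, and those of thalamus and septum 1 of 10. The class-by-region test called 0.44% of all lead probe sets. Hippocampal markers were called lower in 5 of 9, oligodendrocyte markers in 2 of 14, and choroid plexus and cortical excitatory markers in 1 of 10 and 1 of 14. Of the 16 medium spiny neuron markers 1 was called higher and 1 lower in that test. Between the striatal classes 0 of these 16 were called, against 0.022% of all lead probe sets. Their list levels given above did not overlap there, at a median difference of 0.47, against 0.00 over all genes. Hippocampal markers had 0 of 9 called between the striatal classes, at a median difference of -0.23. The part of these shifts in the Homer1 differences was not tested. In pieces of tissue, fewer cells of a type and less RNA per cell cannot be told apart.

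The regions themselves differed in the same Homer1 probe set. In light drinkers it fell by 1.77 ± 0.15 in striatum relative to prefrontal cortex, 3.42-fold, with a limma adjusted p of 0.00016. In inflexible drinkers the striatal minus prefrontal difference was 0.20 ± 0.15 (adjusted p = 0.954), and the arrays overlapped. From high to low, the order was light prefrontal cortex, inflexible striatum, inflexible prefrontal cortex and light striatum. Only the middle pair in that order overlapped. The regional and the prefrontal class comparison share the light prefrontal arrays, so they are not separate evidence.

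The other Homer1 probe sets moved less. The lead, 1437363_at, read 6.93, 7.29 and 7.14 on inflexible and 7.23, 7.59 and 7.28 on light prefrontal arrays, so that the groups overlapped (-0.25 ± 0.11, limma adjusted p = 0.633). In striatum it read 7.10, 7.02 and 6.97 in inflexible drinkers, against 6.91, 6.88 and 7.02 in light drinkers (0.09 ± 0.11). The prefrontal differences of 1439662_at, 1425710_a_at and 1421768_a_at were -0.20 ± 0.10, -0.34 ± 0.16 and -0.24 ± 0.12. The sixth, 1425671_at, stayed near 3 in all groups, at -0.07 ± 0.04. By sign alone, all 6 Homer1 probe sets were lower in inflexible prefrontal cortex and all 6 higher in inflexible striatum. With the 6 averaged on each array, Homer1 fell in prefrontal cortex by 0.39 ± 0.06 (limma adjusted p = 0.0126). That average includes 1436387_at, the only one of the 6 called by itself, so the call on the gene depends on which probe sets speak for it. Which transcripts each probe set reads was not resolved here, and the difference between probe sets was not tested.

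Read over all members, the prefrontal class comparison called 1 of 27 probe sets, lower, against 0.826% of all probe sets in either direction and 0.424% lower, and 0 of 9 leads, against 1.04% of all lead probe sets. At an unadjusted p under 0.05 there were 3 of 27, against 7.61% of all probe sets. The replicate block moved the count over all probe sets to 206, against 372 without it. The 3 inflexible arrays did not overlap the 3 light ones in 4 of 27 member probe sets, against 12.9% of all probe sets, a share near the background. Those 4 were Grin2c and 3 of Homer1, all lower in inflexible drinkers, as were 6.46% of all probe sets. The median member difference was -0.12, against 0.00 over all probe sets.

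In striatum 0 of 27 member probe sets were called by limma between the classes, against 0.0111% of all probe sets, and 0 of 9 leads, against 0.022%. At an unadjusted p under 0.05 there was 1 (Homer1 1436387_at), against 3.53% of all probe sets. Groups did not overlap in 2 of 27, against 7.84% of all probe sets. The median member difference was 0.00. The class-by-region test called 1 member probe set, Homer1 1436387_at, against 0.313% of all probe sets in either direction and 0.115% higher, and 0 of 9 leads, against 0.44%. At an unadjusted p under 0.05 there were 5, against 5.62% of all probe sets. The replicate block gave 51 called over all probe sets, against 141 without it.

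**Figure D2:**
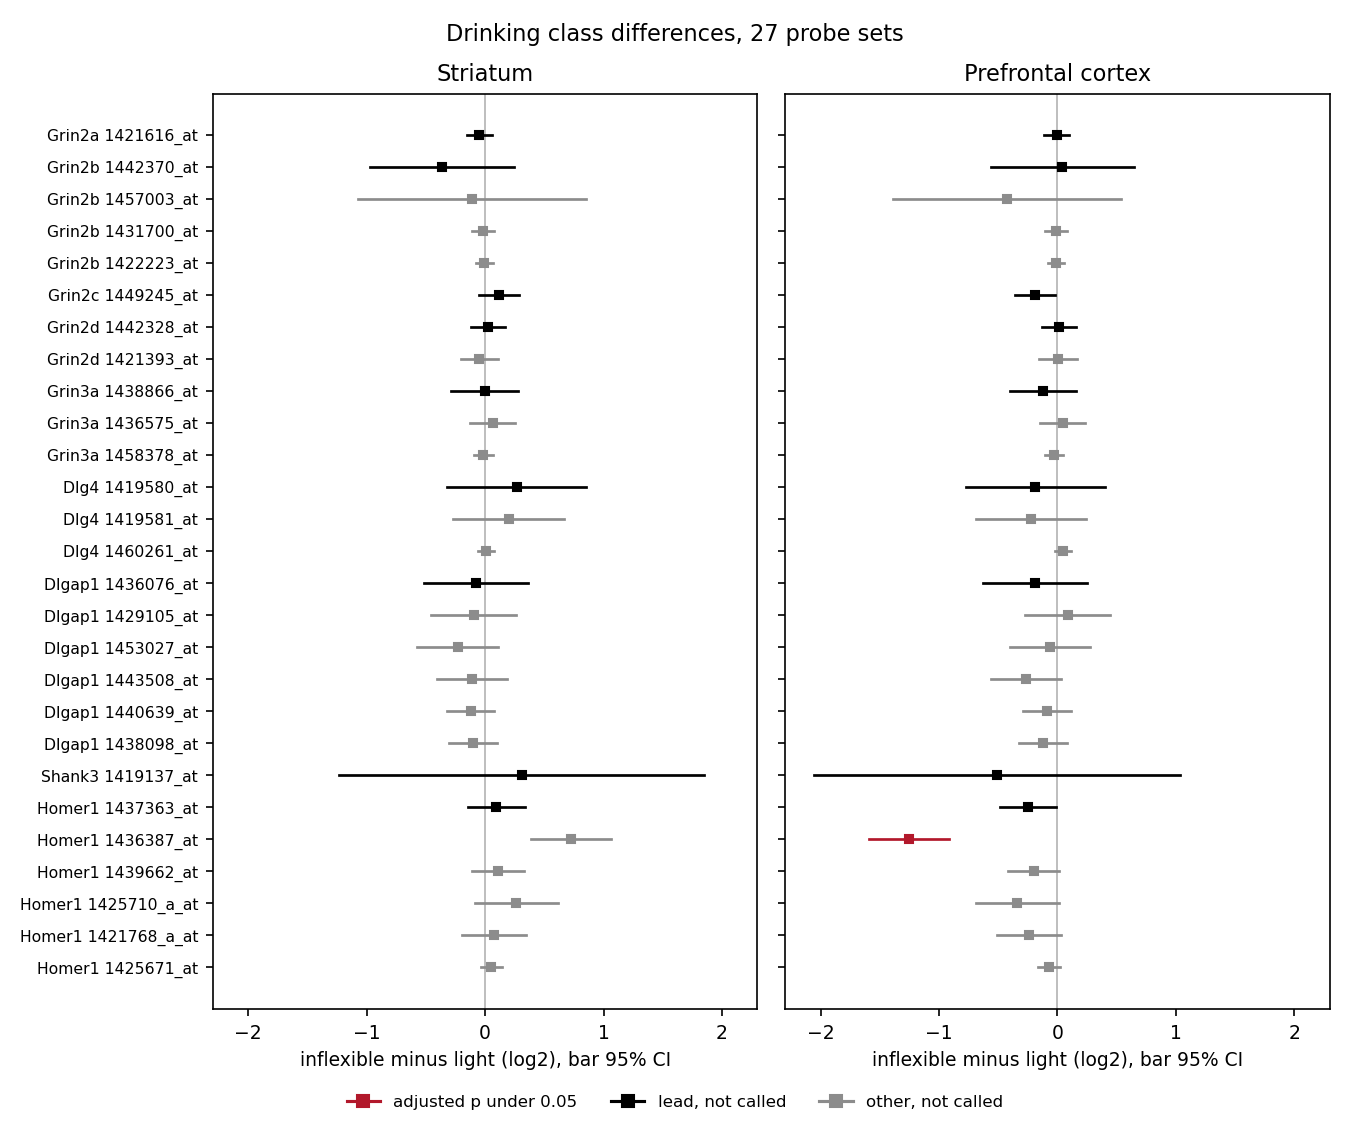
Inflexible minus light difference in log2 signal (x axis, with 95% confidence intervals from limma) for each of the 27 member probe sets (y axis), in striatum and in prefrontal cortex. The prefrontal interval of Homer1 1436387_at runs from -1.59 to -0.91, and apart from that of the same probe set in striatum, at 0.72, the remaining differences lie between -0.51 and 0.31.

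Among the receptor subunits no probe set was called by drinking class. Grin2b, which forms receptors with slow decay, was read by its lead 1442370_at. The lead stood at 6.65, 6.09 and 6.82 on inflexible and 6.82, 5.91 and 6.70 on light prefrontal arrays, and the class difference was 0.04 ± 0.27. In striatum the values were 6.42, 6.52 and 6.15 in inflexible drinkers and 6.38, 6.97 and 6.83 in light drinkers (-0.37 ± 0.27, limma adjusted p = 1.00). The groups overlapped in both regions. The spread followed the array split, since all 5 high-control arrays (5.91 to 6.42) lay below all 7 low-control arrays (6.52 to 6.97).

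The second Grin2b probe set, 1457003_at, tended to be higher on the high-control side, at 6.12 to 6.76 on high-control arrays and 5.18 to 6.53 on low-control arrays. Its class differences were -0.42 ± 0.43 in prefrontal cortex and -0.11 ± 0.43 in striatum. Its ranges on the 2 sides overlapped, unlike those of the lead. The other 2 Grin2b probe sets stayed between 3.04 and 3.25 on all 12 arrays.

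Grin2a, whose receptors close faster than those with Grin2b, read 2.89 to 3.13 on all 12 arrays, at the level of the array medians. Its class differences of -0.01 ± 0.05 in prefrontal cortex and -0.05 ± 0.05 in striatum therefore bear only on this weak probe set. The Grin2b minus Grin2a signal difference was set between the classes as a contrast, not as a ratio of transcripts. In striatum it was 3.37 ± 0.26 in inflexible and 3.69 ± 0.39 in light drinkers (exact permutation test, two-sided p = 0.3). In prefrontal cortex it was 3.57 ± 0.34 in inflexible and 3.53 ± 0.48 in light drinkers (exact permutation test, p = 0.9). With 3 arrays against 3 this test cannot go below 0.1, and since Grin2a hardly varied, the contrast follows Grin2b.

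**Figure D3:**
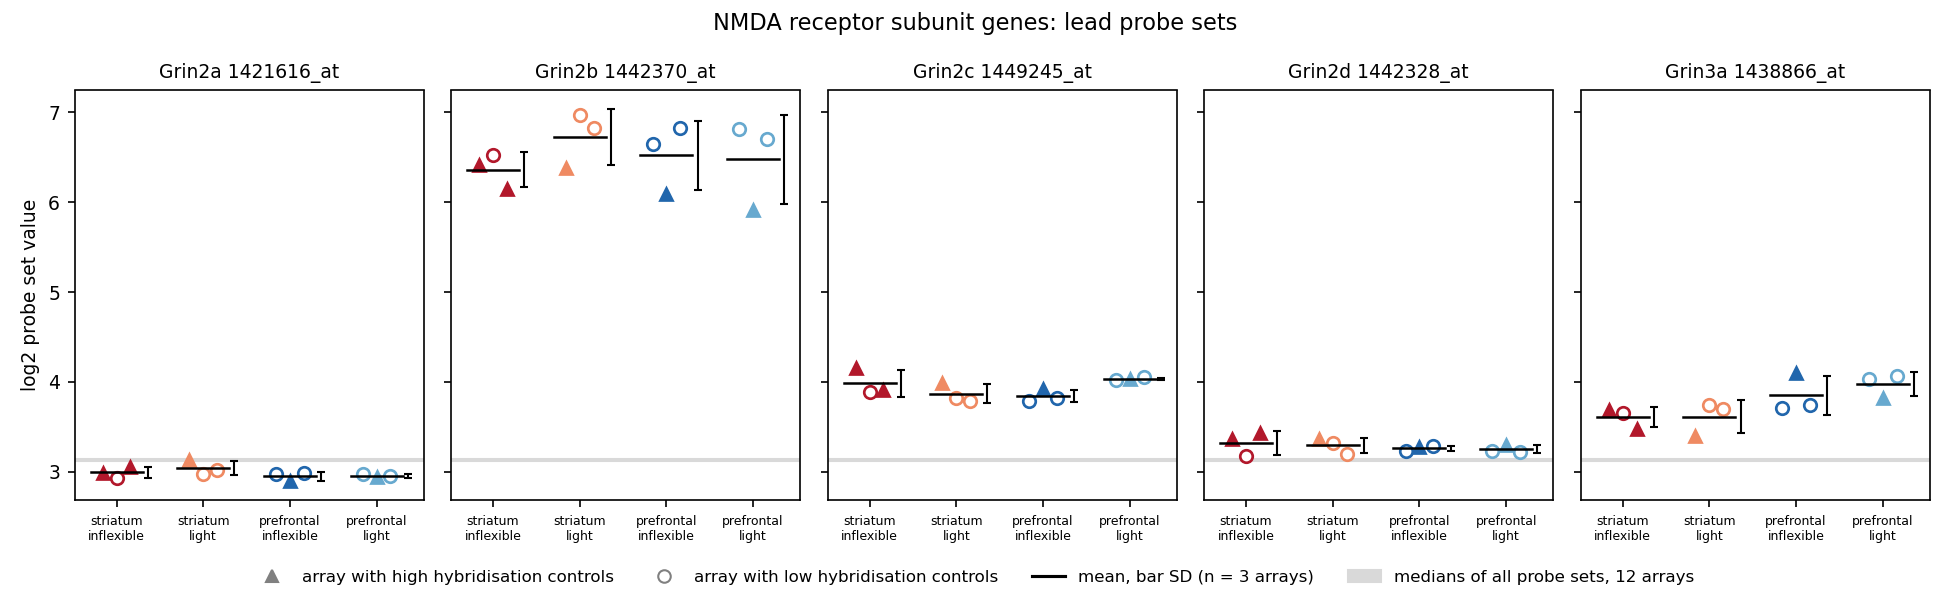
Log2 signal (y axis) of the lead probe set of each measured NMDA receptor subunit by group (x axis), with 1 point per array, triangles for high-control arrays and bars for the mean ± SD of 3 arrays. Grin2a stays between 2.89 and 3.13, Grin2b spreads over 5.91 to 6.97 with the high-control arrays lowest, and signals of different probe sets are not comparable with each other.

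Grin2c, a subunit known mainly from cerebellar granule cells and glia, read 3.79, 3.92 and 3.82 on inflexible prefrontal arrays, against 4.02, 4.03 and 4.05 on light ones. The groups did not overlap, but the difference of -0.19 ± 0.08 was not called (limma adjusted p = 0.565). Low-control arrays alone, 2 a class, gave -0.23 with an adjusted p of 0.0229, and the high-control side, 1 a class, gave -0.10 (adjusted p = 0.881). In striatum Grin2c stood at 3.98 ± 0.15 in inflexible drinkers, against 3.87 ± 0.11 in light drinkers, and the class-by-region difference of 0.31 ± 0.11 had an adjusted p of 0.633. Grin2d, a subunit of interneurons and brainstem, had probe sets at 2.97 to 3.43 on all 12 arrays, and its lead differed by 0.01 ± 0.06 in prefrontal cortex and 0.03 ± 0.06 in striatum.

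Grin3a, which lowers the calcium permeability of receptors that contain it, read 3.71, 4.10 and 3.74 on inflexible and 4.03, 3.82 and 4.07 on light prefrontal arrays. These overlapped (-0.12 ± 0.13, limma adjusted p = 0.991). On low-control arrays alone, 2 a class, the difference was -0.32 with an adjusted p of 0.0165, and on the high-control side, 1 array a class, it was 0.28 (adjusted p = 0.646), so the sides differed in sign. In striatum the classes stood at 3.61 ± 0.11 in inflexible drinkers, against 3.61 ± 0.18 in light drinkers. All 3 Grin3a probe sets averaged below 4.

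The scaffold that binds the receptor tails, Dlg4, also followed the array split. Its lead 1419580_at read 6.68 to 7.20 on high-control arrays and 6.16 to 6.61 on low-control arrays. The class differences were -0.19 ± 0.26 in prefrontal cortex and 0.27 ± 0.26 in striatum, with overlapping groups. With the split as a block the prefrontal value was the same at an SE of 0.11 (limma adjusted p = 0.564). A second Dlg4 probe set, 1419581_at, overlapped between the sides of the split, at 5.57 to 6.24 on high-control and 5.37 to 5.99 on low-control arrays, and the last lay at 2.97 to 3.11.

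Shank3, which ties the scaffold to the actin cytoskeleton and to Homer1, varied most of the leads. It read 4.79, 6.13 and 4.57 on inflexible and 5.25, 6.42 and 5.34 on light prefrontal arrays. On striatal arrays it read 6.84, 4.74 and 6.69 in inflexible drinkers and 6.66, 5.91 and 4.77 in light drinkers. Within each group the high-control arrays were the highest: over all groups they spanned 6.13 to 6.84, against 4.57 to 5.91 on low-control arrays. The class difference in prefrontal cortex was -0.51 ± 0.69, and with the split as a block -0.51 ± 0.27 (limma adjusted p = 0.491). In striatum it was 0.31 ± 0.69 without the block and -0.19 ± 0.28 with it, so that its sign depended on the block. The absolute correlation with the control level was larger in 7.73% of all probe sets than for Shank3, in 10.1% than for Dlg4 and in 5.74% than for the Grin2b lead.

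**Figure D4:**
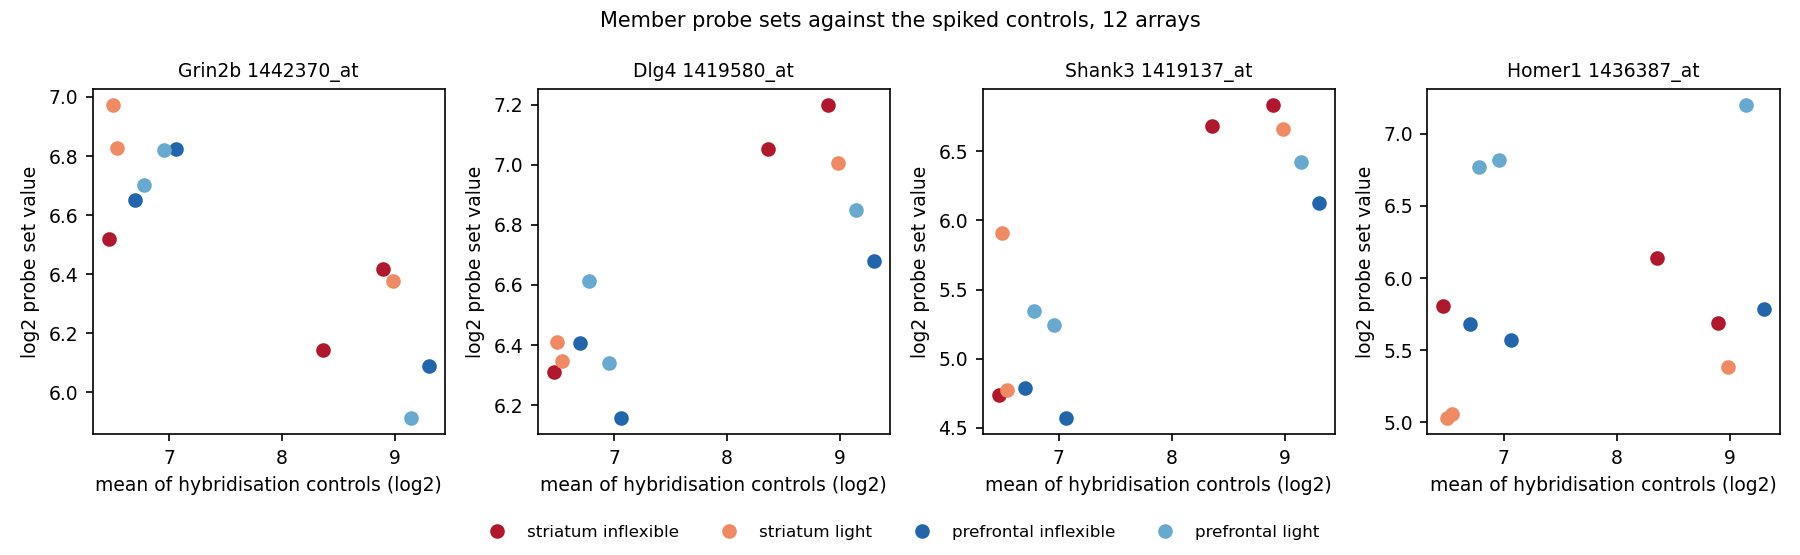
Log2 signal of the Grin2b, Dlg4 and Shank3 leads and of Homer1 1436387_at (y axes) against the mean log2 signal of the hybridisation controls (x axis), with 1 point per array and the groups marked. Shank3 is at 6.13 to 6.84 on the 5 high-control arrays and 4.57 to 5.91 on the other 7, while in Homer1 1436387_at the light prefrontal arrays are highest, at 6.77 to 7.20, on both sides of the split.

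Dlgap1, the link between Dlg4 and Shank3, showed no called class difference, and its lead 1436076_at differed by -0.19 ± 0.20 in prefrontal cortex and -0.08 ± 0.20 in striatum. It varied more between regions. The probe set 1443508_at read 3.67, 4.03 and 3.96 on light striatal arrays, against 4.42, 4.28 and 4.56 on light prefrontal arrays. These did not overlap, at a difference of -0.53 ± 0.13 (limma adjusted p = 0.0694), and with the array split as a block the adjusted p was 0.00091. In inflexible drinkers 1453027_at read 6.19, 6.06 and 5.86 in striatum, against 6.56, 6.37 and 6.78 in prefrontal cortex (-0.53 ± 0.15, adjusted p = 0.258). All 6 Dlgap1 probe sets were lower in striatum in both classes. Averaged per array, Dlgap1 fell in striatum relative to prefrontal cortex by 0.28 ± 0.03 in light drinkers and by 0.30 ± 0.03 in inflexible drinkers (limma adjusted p = 0.00072 and 0.0019).

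Over all members, the striatal minus prefrontal comparison in light drinkers called 1 of 27 probe sets, lower, against 3.32% of all probe sets in either direction and 1.86% lower, and 0 of 9 leads, against 4.68%. At an unadjusted p under 0.05 there were 7, against 11.4% of all probe sets. With the array split as a block 3 of 27 were called, against 7% of all probe sets in that fit. The regions did not overlap in 9 of 27, all lower in striatum, against 8.65% of all probe sets lower and 16.3% in either direction. These were 5 of Homer1, 2 of Dlgap1, Grin2c and Grin3a, and probe sets of one gene are not independent. In inflexible drinkers 0 of 27 were called by limma, against 0.773% of all probe sets, and 0 of 9 leads, against 1.2%. At an unadjusted p under 0.05 there were 3, against 7.4% of all probe sets. The regions did not overlap in 4, all lower in striatum, against 5.98% of all probe sets lower and 11.5% in either direction, and these were 3 of Dlgap1 and Grin3a.

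Other genes of the postsynaptic density were read through 34 listed scaffold and spine genes, of which 30 were measured. By limma 0 of 30 were called by class in prefrontal cortex, against 1.04% of all lead probe sets, and 0 in striatum, against 0.022%. The median differences were -0.05 and -0.01, against 0.00 over all genes in both. The smallest adjusted p in prefrontal cortex was that of Sipa1l1, a spine GTPase-activating protein, at 7.75 ± 0.07 in inflexible drinkers, against 8.15 ± 0.04 in light drinkers (-0.41 ± 0.09, adjusted p = 0.0832). Synpo, an actin-binding spine apparatus protein, stood at 4.63 ± 0.09 in inflexible drinkers, against 5.29 ± 0.06 in light drinkers (-0.67 ± 0.17, adjusted p = 0.169).

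Proteins that modify, traffic or signal from NMDA receptors made a second list, with 36 of 43 measured. Of these 36, 1 was called in prefrontal cortex, higher, against 1.04% of all lead probe sets called there. It was Neto1, an auxiliary subunit of kainate receptors that also associates with NMDA receptors. It stood at 6.62 ± 0.12 in inflexible drinkers, against 5.88 ± 0.07 in light drinkers, with no overlap (0.74 ± 0.11, limma adjusted p = 0.0185). With the replicate block its adjusted p was 0.0693, and leaving out any 1 prefrontal array other than replicate 2 of the light drinkers gave 0.056 to 0.0914. In striatum Neto1 stood at 6.98 ± 0.24 in inflexible drinkers, against 6.67 ± 0.11 in light drinkers. There 0 of the 36 were called, against 0.022% of all lead probe sets. Rasgrf2, a calcium-sensing exchange factor for Ras, differed by -0.57 ± 0.13 in prefrontal cortex (adjusted p = 0.0963, and 0.0375 with the replicate block), and it also stands in the list of cortical excitatory markers. Reln, the secreted reelin, differed by 0.45 ± 0.13 in striatum and -0.51 ± 0.13 in prefrontal cortex, and the class-by-region difference of 0.96 ± 0.18 had an adjusted p of 0.0929.

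The genes whose profile over the 12 arrays was most like that of each lead were found among 16321 named genes by Pearson's r, as a description. The arrays of a group share tissue and possibly a pool, and the control split runs through all groups. Shank3 was closest to Ctxn1 (r = 0.99) and Spryd3 (0.99), and Dlg4 to Mypop (0.96) and Mt3 (0.96). Grin2b was closest to Brd9 (0.95) and Ntrk3 (0.94), Grin2c to Rimbp2 (0.94) and Prkcz (0.89), and Grin3a to Tek (0.92) and Sbno1 (0.90). Dlgap1 was closest to Ywhag (0.94) and Gmps (0.93), and the Homer1 lead to Nrsn1 (0.94) and Atp2b4 (0.93). For the weak Grin2a and Grin2d probe sets the closest were Chrna5 (0.94) and Rasgrp3 (0.92). For Homer1 1436387_at, looked up after its values were seen, they were Dcun1d3 (0.97), Ms4a15 (0.95) and Hcn3 (0.94).

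Promoter windows were found in RefSeq for 6 of the 9 measured members, 10 windows in all, with none for Grin2a, Grin2b and Grin3a. The TGACG core was in 2 of the 10, 1 each of Homer1 and Dlg4, against 20.8% of all windows. The full cAMP response element TGACGTCA was in 0, against 1.79%, and the AP-1 site TGANTCA in 0, against 7.81%. An EGR site, GCGNGGGCG, was in 1, that of Shank3, against 5.55%. The CArG box and the MEF2 site, searched by name, were in 0 of the 10, against 1.63% and 3.19%. All letters were searched on both strands, and each TGACGTCA also counts as TGACG.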

How the data were processed

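Prefrontal cortex and whole striatum were profiled on 1-colour arrays, 12 in all, from TRIzol RNA per the labels' protocols. The authors deposited 1 table of summarised log2 signals. The submitters' processing notes name RMA and affy and give no versions. No source used here states the log base, which was taken as 2 from the range of 2.76 to 11.56. Of 45101 probe sets, 64 controls were left out. In the platform annotation 34945 probe sets had a single symbol, 932 several and 9160 none, and 34741 matched RefSeq by gene ID. No column went unmapped. The number of arrays limits the precision.

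With limma 3.58.1 (R 4.3.3), lmFit and eBayes were run on the 12 arrays with a mean per group, 8 residual degrees of freedom and 5 contrasts, and two-sided p-values were adjusted over 45037 probe sets. The script was tested on simulated data. The members and lists were chosen with earlier results of these data known. Each member was named, as were the genes of the 2 further lists that were called or had the smallest p-values, and the 2 most similar genes per lead (clone names left out). Medians of lists use lead probe sets. Promoter windows came from RefSeq (GRCm38.p6).

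Arrays with the same replicate number correlated in their deviations from the group means between the prefrontal classes (0.74, 0.85 and 0.62), where equal numbers also shared the side of the control split. Unequal numbers on the same side gave 0.80 and 0.62, and those on opposite sides -0.83 to -0.67. A pairing by number was thus not shown apart from the split. Between the striatal classes equal numbers gave 0.25, 0.26 and -0.64. The replicate block was still fitted over all 12 arrays, so it paired striatal arrays by number too. No label gives a batch, and chip numbers held 1 array each. Alternatives were the control split as a block or by side, the replicate block, quantile normalization, a filter on low values (above 4 on at least 3 arrays), array weights, fits of only the compared groups, all probe sets of a gene averaged, and leaving out each array. All arrays held different values.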

Additional observations from a re-analysis of the deposited data

Results flagged for a closer look

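One result was singled out by its test of a difference between regions. The inflexible minus light difference of the Homer1 probe set 1436387_at was 0.72 ± 0.15 in striatum and -1.25 ± 0.15 in prefrontal cortex (SE, 3 arrays a group). The difference between the regions was 1.97 ± 0.21, with a limma adjusted p of 0.0067, and it was 1.89 with the hybridisation control split as a block (adjusted p = 0.0012). In striatum 3 of 3 inflexible arrays lay above all light arrays, and in prefrontal cortex 3 of 3 lay below. Low-control arrays alone gave 1.93 and high-control arrays alone 1.95. The low side held 1 inflexible striatal array, and the high side 1 array in each group but the inflexible striatum. A lone array was assumed to vary like the other groups in the adjusted p-values of 0.0079 and 0.637. In the class-by-region test over all arrays, 0.44% of all lead probe sets were called. Markers of hippocampal neurons were called lower in 5 of 9, of oligodendrocytes in 2 of 14 and of choroid plexus in 1 of 10. Their part in the Homer1 value was not tested. With the replicate block the adjusted p was 0.0412, and leaving out 1 array at a time kept the difference between 1.84 and 2.09. The striatal difference by itself had an adjusted p of 0.406 over all arrays and of 0.116 with the split as a block.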

How the results depend on the processing

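Over the 5 comparisons and all alternatives, 2589 values of member probe sets or averages per gene stayed called or stayed uncalled. A further 37 gained and 3 lost a call, and 0 called values changed sign. Of the 37, 5 were averages over a gene's probe sets, compared with its lead. Another 29, never called, changed sign and moved by at least the spread between arrays. Among the 2589, the size of a shift was not limited where the sign was kept. With the control split as a block the called probe sets numbered 1119 in prefrontal cortex, 34 in striatum, 443 for class by region, 3152 for region in light and 972 in inflexible drinkers. For region in light drinkers 3 members were among them, against 7% of all probe sets. Low-control arrays alone gave 1243 in prefrontal cortex and 3775 for region in light drinkers. Of the 27 members, 4 were called in prefrontal cortex, against 2.76% of all probe sets. For region in light drinkers 6 members were called, against 8.38%. High-control arrays alone, with 1 residual degree of freedom, gave 0 in every comparison by limma (2783 to 5387 at an unadjusted p under 0.05) and 0 members. The replicate block gave 206 in prefrontal cortex and 51 for class by region, and changed no member's call, while 6 calls on genes tried from the 2 further lists changed, at an adjusted p between 0.0375 and 0.093 with the block. Fitting only the compared groups gave 198 in prefrontal cortex, 1 in striatum and 61 for region in inflexible drinkers. Array weights gave 2955 with 5 members in prefrontal cortex, against 6.56% of all probe sets, and 800 with 2 for class by region, against 1.78%. Between the regions they gave 4685 with 9 members in light drinkers, against 10.4%, and 886 with 2 in inflexible drinkers, against 1.97%. The filter on low values gave 3 in striatum. For region in light drinkers it called 3 members of the 15 kept, against 9.92% of all probe sets kept. Quantile normalization called 2 members there, against 3.58% of all probe sets. Leaving out 1 array at a time gave 157 to 394 in prefrontal cortex, 2 to 9 in striatum, 62 to 161 for class by region, 942 to 1607 for region in light and 158 to 404 in inflexible drinkers. It gave 1 to 3 members for region in light drinkers. There were 2 without replicate 1 of the inflexible prefrontal arrays, against 2.86% of all probe sets, and 3 without replicate 2, against 3.57%. Without replicate 3 of the light striatal arrays there were 2, against 2.34%. The prefrontal count, 372 with all arrays, was 157 to 227 without any 1 prefrontal array other than light replicate 2. The prefrontal Grin2b minus Grin2a difference of 0.05 between the classes was -0.0947 with probe sets averaged, -0.0383 on low-control arrays and -0.23 to 0.24 with 1 array left out. The cause of these shifts was not tested. With 3 arrays a group that may share a pool, and weak probe sets near the background, small differences could not be measured here.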

Other observations

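Between the regions, several genes around the NMDA receptor were called in both drinking classes. Rasgrf2, a calcium-sensing Ras exchange factor, fell in striatum relative to prefrontal cortex by 1.37 ± 0.13 in inflexible drinkers and by 1.73 ± 0.13 in light drinkers (limma adjusted p = 0.0013 and 6.9e-05). Actn2, an actinin that binds the Grin1 tail, rose in striatum by 0.66 ± 0.11 in inflexible and 0.70 ± 0.11 in light drinkers (adjusted p = 0.0269 and 0.0063), at signals near the low end of the scale. Kalrn, a signalling protein of dendritic spines, fell by 0.50 ± 0.09 in inflexible and 0.48 ± 0.09 in light drinkers (adjusted p = 0.0343 and 0.0137). The Rasgrf2 calls and the Actn2 call in light drinkers held with any 1 array left out. The Actn2 call in inflexible drinkers was lost without any 1 of the 6 arrays compared (adjusted p = 0.0711 to 0.108), and that of Kalrn without any 1 of 7 arrays (0.0636 to 0.137). In light drinkers Kalrn lost its call without prefrontal replicate 1 or 3 (0.0558 and 0.0631).

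Others passed the limma test in light drinkers. Neto1 rose in striatum by 0.79 ± 0.11, Lrrtm1, a synaptic adhesion protein, by 0.71 ± 0.14 and Abi1, an actin regulator, by 0.45 ± 0.10, while Magi1, a membrane scaffold, fell by 0.72 ± 0.13 and Sipa1l1 fell by 0.40 ± 0.09. The Neto1 call held with any 1 array left out. The others were each lost without some single arrays, 6 of the 12 for Lrrtm1 (adjusted p = 0.0567 to 0.0816), 8 for Abi1 (0.0556 to 0.167), 3 for Magi1 (0.051 to 0.0561) and 8 for Sipa1l1 (0.0554 to 0.115). The differences in inflexible drinkers were 0.36 ± 0.11 for Neto1, 0.43 ± 0.14 for Lrrtm1, 0.12 ± 0.10 for Abi1, -0.51 ± 0.13 for Magi1 and 0.10 ± 0.09 for Sipa1l1, none of them called. The class-by-region test called 0 of the 30 scaffold genes and 0 of the 36 receptor regulators, against 0.44% of all lead probe sets. A regional difference that depended on the class was therefore not shown for any of them. In counts, 2 of 30 scaffold genes rose and 3 fell in striatum of light drinkers, and 0 rose and 1 fell in that of inflexible drinkers. Of the regulators 2 of 36 rose and 1 fell in light drinkers, and 1 rose and 1 fell in inflexible drinkers, against 4.68% of all lead probe sets called in light and 1.2% in inflexible drinkers.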
